A study of Homo sapiens with 4 samples.

Results

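The genes S100A4, S100A7, S100A8 and S100A9 were followed in head and neck squamous cell carcinoma cells depleted of FOSL1. They are 4 of the 21 genes of the human S100 family considered here, and were found by symbol in the 2 tables the authors deposited, 1 for each cell line. The tables list 2770 different genes in all. All 4 genes were in the FaDu table, which has 1545 genes, and S100A4 alone was in the SCC1 table, which has 1903 genes.

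The cells were FaDu with FOSL1 siRNA, FaDu with control siRNA, SCC1 with FOSL1 siRNA and SCC1 with control siRNA. Both are established head and neck cancer cell lines, and FaDu was derived from a hypopharyngeal tumour. Cells were grown in DMEM with serum and their total RNA was sequenced after 48 h of siRNA, and each of the 4 groups is a single library. No difference below has a replicate check, and none was tested across conditions. Effective library sizes ran from 10365774 to 13242163 reads. FOSL1, which encodes the AP-1 subunit FRA1, had 36.9 CPM (reads scaled to library size) in FaDu with FOSL1 siRNA and 774 CPM in FaDu with control siRNA. It had 3.99 CPM in SCC1 with FOSL1 siRNA and 133 CPM in SCC1 with control siRNA.

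S100 proteins are small calcium-binding proteins built around paired EF hands, and most work as dimers inside the cell and, once released, outside it. S100A8 and S100A9 pair to form calprotectin, which binds zinc and manganese and so starves microbes of them. Neutrophils are full of calprotectin, and keratinocytes make it when skin or mucosa is wounded or inflamed. S100A7, called psoriasin, is an antimicrobial protein of keratinocytes that is abundant in psoriatic skin. S100A4, also called metastasin or FSP1, binds non-muscle myosin and is used as a marker of fibroblasts and of motile cells. Most S100 genes lie side by side on chromosome 1, next to the genes of the cornified envelope.

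The starts of the 4 genes are shown because the genes lie in 1 cluster and because all 4 have a TATA motif just before a start. The sequences are from RefSeq (build GRCh38.p14), read 5′ to 3′ on the strand of the gene, from 250 bases before to 50 bases after the start. Capitals mark each TATAAA on that strand. The authors' build was hg18, so these positions are not those of the deposited tables.
S100A9, chr1:153357604-153357903, plus strand: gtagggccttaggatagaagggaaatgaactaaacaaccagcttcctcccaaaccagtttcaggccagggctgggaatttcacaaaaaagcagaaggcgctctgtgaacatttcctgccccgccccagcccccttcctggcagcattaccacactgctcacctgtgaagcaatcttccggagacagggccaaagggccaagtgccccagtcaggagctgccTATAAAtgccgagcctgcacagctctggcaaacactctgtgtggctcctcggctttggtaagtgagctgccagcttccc
S100A8, chr1:153391024-153391323, minus strand: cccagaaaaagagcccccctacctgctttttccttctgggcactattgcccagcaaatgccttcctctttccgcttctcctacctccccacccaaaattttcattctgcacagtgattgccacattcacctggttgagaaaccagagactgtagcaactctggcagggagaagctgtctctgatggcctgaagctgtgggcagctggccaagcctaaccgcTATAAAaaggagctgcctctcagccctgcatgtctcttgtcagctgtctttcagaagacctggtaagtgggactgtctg
S100A7, chr1:153460602-153460901, minus strand: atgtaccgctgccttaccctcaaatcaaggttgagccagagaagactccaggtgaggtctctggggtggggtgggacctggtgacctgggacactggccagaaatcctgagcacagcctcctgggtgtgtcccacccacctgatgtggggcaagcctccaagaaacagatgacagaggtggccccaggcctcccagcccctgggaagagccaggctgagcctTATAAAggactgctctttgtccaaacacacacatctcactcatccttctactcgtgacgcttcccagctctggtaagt
S100A4, chr1:153545757-153546056, minus strand: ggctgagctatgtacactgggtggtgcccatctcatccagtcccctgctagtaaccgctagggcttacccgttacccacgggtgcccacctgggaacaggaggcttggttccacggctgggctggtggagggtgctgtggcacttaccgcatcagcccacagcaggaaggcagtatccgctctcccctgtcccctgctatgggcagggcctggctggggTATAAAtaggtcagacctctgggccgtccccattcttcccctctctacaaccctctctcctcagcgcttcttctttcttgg

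The motif begins 29 bases before the start in S100A9 and S100A8, 28 in S100A7 and 31 in S100A4. S100A8 has 3 annotated starts, and the one printed was picked because it has the motif at this distance. A TATAAA that begins 20 to 40 bases before the start, on the gene's strand, is in 2.3% of the 35116 promoters of the table. Of the other 17 S100 genes, 15 had a promoter in the table, and 4 of them had the motif there at one start or more (S100A13, S100A7A, S100G and S100P). The AP-1 motif TGACTCA was searched on both strands of the same windows, where TGAGTCA is the same site read on the other strand. It was in none of the 6 windows of the 4 genes, 3 of which are overlapping windows of S100A8. The motif was in 4.95% of all promoters, so most sets of 6 windows would hold none, and no lack is read from this. Among the other S100 genes it was in 1 window each of S100A2, S100A3 and S100A5. A match is a run of letters only, and a missing match says nothing about binding farther away.

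In FaDu the 4 genes were all higher with FOSL1 siRNA, from low or undetected levels with control siRNA. S100A9, the larger partner of calprotectin, had 20.5 CPM (213 reads) with FOSL1 siRNA and 2.53 CPM (29 reads) with control siRNA. The FOSL1 siRNA library was 8.13-fold higher, with a 95% exact binomial interval of 5.50 to 12.4. These intervals cover counting error only and take each read as an independent molecule, which PCR reads without molecular identifiers are not. In bulk RNA, more cells expressing a gene and more RNA per cell cannot be told apart.

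S100A4, the myosin-binding member, had 9.94 CPM (103 reads) in FaDu with FOSL1 siRNA and 1.13 CPM (13 reads) in FaDu with control siRNA. The first was 8.77-fold higher (4.91 to 17.0). The intervals of S100A4 and S100A9 overlap, so no order between these folds can be read.

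S100A7 had 2.60 CPM (27 reads) in FaDu with FOSL1 siRNA and 0 reads with control siRNA. A count of 0 in that library allows up to 0.261 CPM (3 reads). With its 27 reads taken as exact, S100A7 was then at least 9.97-fold higher. S100A8 had 1.06 CPM (11 reads) with FOSL1 siRNA and also 0 reads with control siRNA. With its reads taken as exact, it was at least 4.06-fold higher by the same floor of 3 reads per library. Counting error lowers both bounds, as the Poisson intervals with FOSL1 siRNA reach down to 1.72 CPM for S100A7 and 0.530 CPM for S100A8. The folds of 243 for S100A7 and 99.4 for S100A8 in the authors' deposited table are finite values against a library with no reads.

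S100A8 stood at the edge of what the FaDu table lists. Its 11 reads, a number that IL19 also had, were the fewest of any listed gene, counting both libraries together. Of the 20 genes that were higher and had 0 control reads, 5 had at least the 27 reads of S100A7, itself included, and all 20 had at least the 11 of S100A8. By CPM ratio among the 636 higher FaDu genes with reads in both libraries, S100A4 ranked 35 and S100A9 ranked 38.

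The authors' deposited table gave an FDR of 1.61e-05 for S100A9, 4.38e-05 for S100A7, 7.86e-05 for S100A4 and 0.0122 for S100A8 in FaDu. Ordered by that FDR, the authors' deposited table has S100A9 at place 31, S100A7 at 39, S100A4 at 44 and S100A8 at 233 of 1545. These values compare 2 libraries at an assumed spread and not 2 conditions. All 4 genes being higher is set beside 4.76%, the share of the 13796 genes the authors tested that were listed as higher in FaDu. At an FDR under 0.05 in the authors' deposited table, all 4 were higher, beside 1.25% of tested genes. The 4 were chosen with results of these data known, so nothing is read from that contrast.

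**Figure D1:**
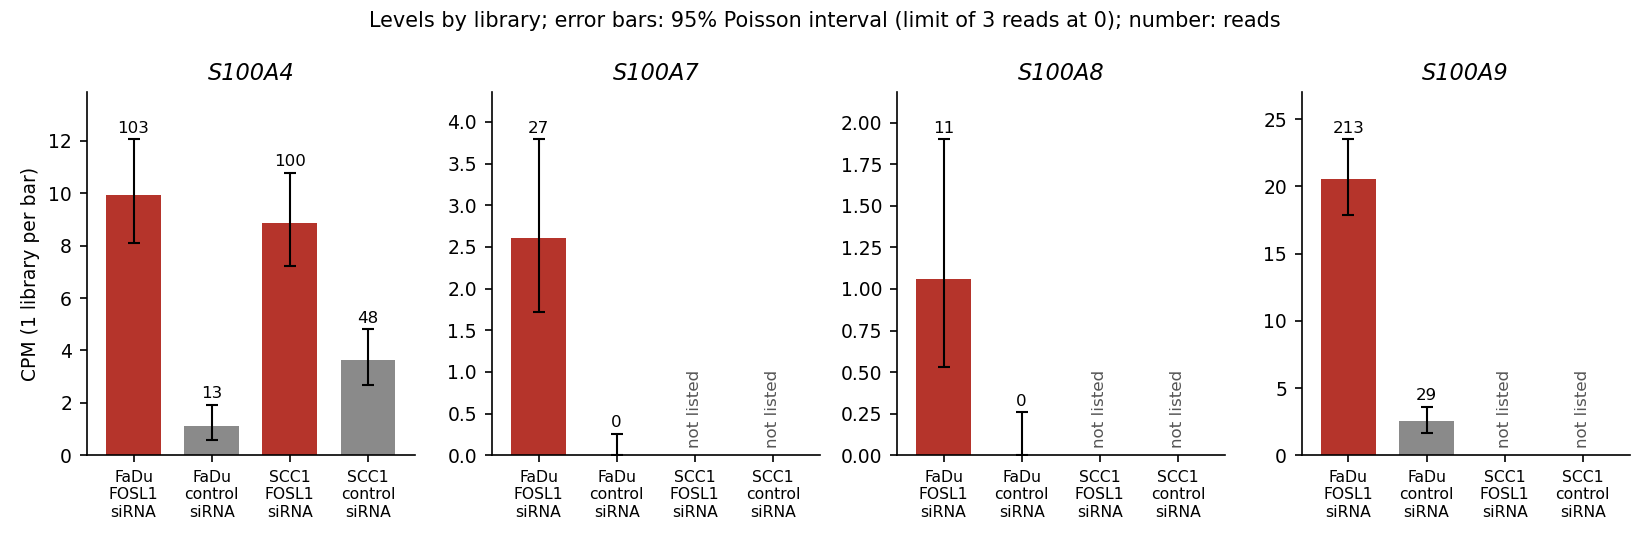
CPM of S100A4, S100A7, S100A8 and S100A9 in each library, in 1 panel per gene with its own axis; red bars are FOSL1 siRNA, grey bars control siRNA, error bars 95% Poisson intervals (a limit of 3 reads where the count is 0) and the number on each bar its reads. In FaDu each red bar stands clear of its grey bar, at 9.94 against 1.13 CPM for S100A4 and 20.5 against 2.53 CPM for S100A9, while S100A7, S100A8 and S100A9 have no value in SCC1.

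In SCC1 only S100A4 was listed. It had 8.86 CPM (100 reads) with FOSL1 siRNA and 3.62 CPM (48 reads) with control siRNA, 2.45-fold higher (1.72 to 3.53). The direction was that of FaDu. The authors' deposited table gave it an FDR of 0.171, at place 1076 of 1903, and by CPM ratio it ranked 407 of the 757 higher SCC1 genes with reads in both libraries. The share of the 13796 tested genes listed as higher in SCC1 was 5.6%, and 1.57% were also under an FDR of 0.05 in the authors' deposited table, which S100A4 was not.

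S100A7, S100A8 and S100A9 have no SCC1 value, and they are not called unchanged there. The table lists genes under a p-value of 0.05, and no listed SCC1 gene with reads in both libraries differed by less than 1.88-fold. The fewest FOSL1 siRNA reads that any listed SCC1 gene had against 0 control reads was 12, or 1.06 CPM. A level in SCC1 like that of S100A8 in FaDu therefore lay at the limit of what the table shows. The FaDu values of S100A9 (8.13-fold) and S100A7 (27 reads against 0) were above these smallest listed SCC1 values. Whether a fold is listed also depends on a gene's reads, and the SCC1 reads of S100A9 and S100A7 are not known.

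For S100A4 the FaDu ratio was 3.59 times the SCC1 ratio, with an exact interval of 1.77 to 7.64 from counting error alone. With 1 library a group, the difference between the lines was not tested. The 2 FOSL1 siRNA libraries had near levels of S100A4, 9.94 CPM in FaDu and 8.86 CPM in SCC1, and their Poisson intervals overlap (8.11 to 12.1 and 7.21 to 10.8 CPM). The control libraries lay apart, at 1.13 CPM in FaDu (0.603 to 1.94) and 3.62 CPM in SCC1 (2.67 to 4.81). The tables were normalized separately, which limits levels set across lines.

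The other S100 genes did not all go the same way. Of all 21 family genes, FaDu listed 7 as higher and 1 as lower and left 13 out, where 4.76% of tested genes were listed as higher and 6.44% as lower. The 7 include the 4 genes followed here, which were chosen with results of these data known. Of the other 17 genes, FaDu listed 3 as higher (S100A11, S100A6 and S100P) and 1 as lower. SCC1 listed 2 of the 21 as higher, S100A4 among them, and 2 as lower and left 17 out, where 5.6% and 8.19% of tested genes were. How many of the 21 were tested is not known. The median log2 CPM ratio of listed S100 genes, with the genes at 0 reads set to their bound, was 1.78 in FaDu and 0.17 in SCC1. Over all listed genes it was -1.01 in FaDu and -1.05 in SCC1. A gene was listed only if it differed, and the S100 medians include the 4 genes where they were listed. These medians thus describe the tables and not the family.

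S100A11, which binds annexin A1, had 340.4 CPM in FaDu with FOSL1 siRNA and 131 CPM with control siRNA, 2.59-fold higher (2.44 to 2.75). S100A6, or calcyclin, had 223 CPM with FOSL1 siRNA and 93.8 CPM with control siRNA, 2.38-fold higher (2.21 to 2.56). Their intervals are narrow because the genes are abundant, and yet the authors' deposited table gave them FDRs of 0.0837 and 0.14. S100A11 and S100A6 thus differed by less than S100A4 and S100A9, whose lower interval bounds of 4.91 and 5.50 lie above both of their upper bounds.

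S100P, a family member outside the cluster, was listed in both lines from few reads. It had 21 reads in FaDu with FOSL1 siRNA and 8 with control siRNA, 2.91-fold higher (1.24 to 7.59). In SCC1 it had 17 reads with FOSL1 siRNA and 3 with control siRNA, a ratio of 6.65 (1.92 to 35.4). The authors' deposited table gave S100P an FDR of 0.356 in FaDu and 0.0609 in SCC1. The FaDu ratio over the SCC1 ratio was 0.437 (0.0656 to 2.23), so the reads cannot order the lines.

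S100A16 went the other way from the 4 genes in FaDu and from S100A4 in SCC1. It had 64.2 CPM in FaDu with FOSL1 siRNA and 277 CPM with control siRNA, 4.32-fold lower (3.97 to 4.70). In SCC1 it had 38.5 CPM with FOSL1 siRNA and 158 CPM with control siRNA, 4.12-fold lower (3.71 to 4.57). Its FDR in the authors' deposited table was 0.00133 in FaDu and 0.0021 in SCC1. The FaDu ratio over the SCC1 ratio was 0.954, with a counting interval of 0.833 to 1.09. S100A2, a p53-regulated gene of basal keratinocytes, was listed in SCC1 alone, at 283 CPM with FOSL1 siRNA and 546 CPM with control siRNA. That was 1.93-fold lower (1.85 to 2.01), but a ratio of 1.07 once the median log2 ratio of listed genes is set to 0. Most listed genes were lower, so setting that median to 0 raises every ratio by construction and is no check of a lower gene. Its FDR in the authors' deposited table was 0.308.

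**Figure D2:**
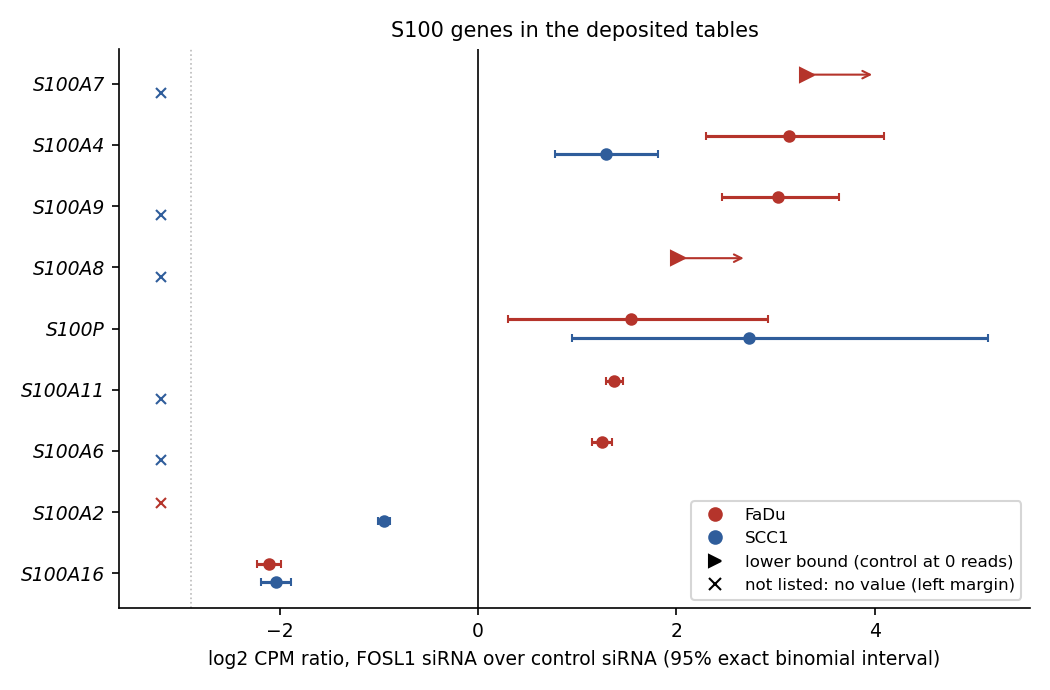
Log2 CPM ratio of FOSL1 siRNA over control siRNA for every S100 gene in either table, with 95% exact binomial intervals; red is FaDu, blue is SCC1, triangles with arrows are lower bounds against 0 control reads and crosses in the left margin are genes with no listed value. S100A4, S100A7, S100A8 and S100A9 are to the right in FaDu, at 2.02 or more, S100A16 is to the left in both lines at 4.32-fold and 4.12-fold lower, and S100A4 is the one of the 4 with a blue point. The lower bounds take the FOSL1 siRNA reads as exact.

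Along the chromosome the 4 genes are not neighbours of each other without a break. RefSeq places S100A9, S100A12, S100A8, S100A7A, S100A7, S100A6, S100A5, S100A4, S100A3, S100A2 and S100A16 in this order. In FaDu, S100A9, S100A8, S100A7, S100A6 and S100A4 were higher, while S100A12, S100A7A, S100A5, S100A3 and S100A2, which lie among or just after them, were not listed. S100A16, at the end of that run, was lower. From S100A10 to S100A1 the annotation has 16 S100 genes, of which FaDu listed 6 as higher and 1 as lower and left 9 out. All 4 genes followed here are among those 6. SCC1 listed 1 of the 16 as higher (S100A4) and 2 as lower and left 13 out. Of all tested genes, FaDu listed 4.76% as higher and 6.44% as lower, and SCC1 5.6% and 8.19%. The same stretch has 47 other protein-coding genes, and 1 of them, HRNR, was listed in each line. These limits of the stretch were set after the values were seen.

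HRNR encodes hornerin, a large protein of the granular layer that carries an S100-type domain. It had 12 reads in FaDu with FOSL1 siRNA and 3 with control siRNA, a ratio of 4.43 (1.20 to 24.5). In SCC1 it had 25 reads with FOSL1 siRNA and 8 with control siRNA, 3.67-fold higher (1.60 to 9.41). The 6 others of the 7 genes of this fused type were in neither table.

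**Figure D3:**
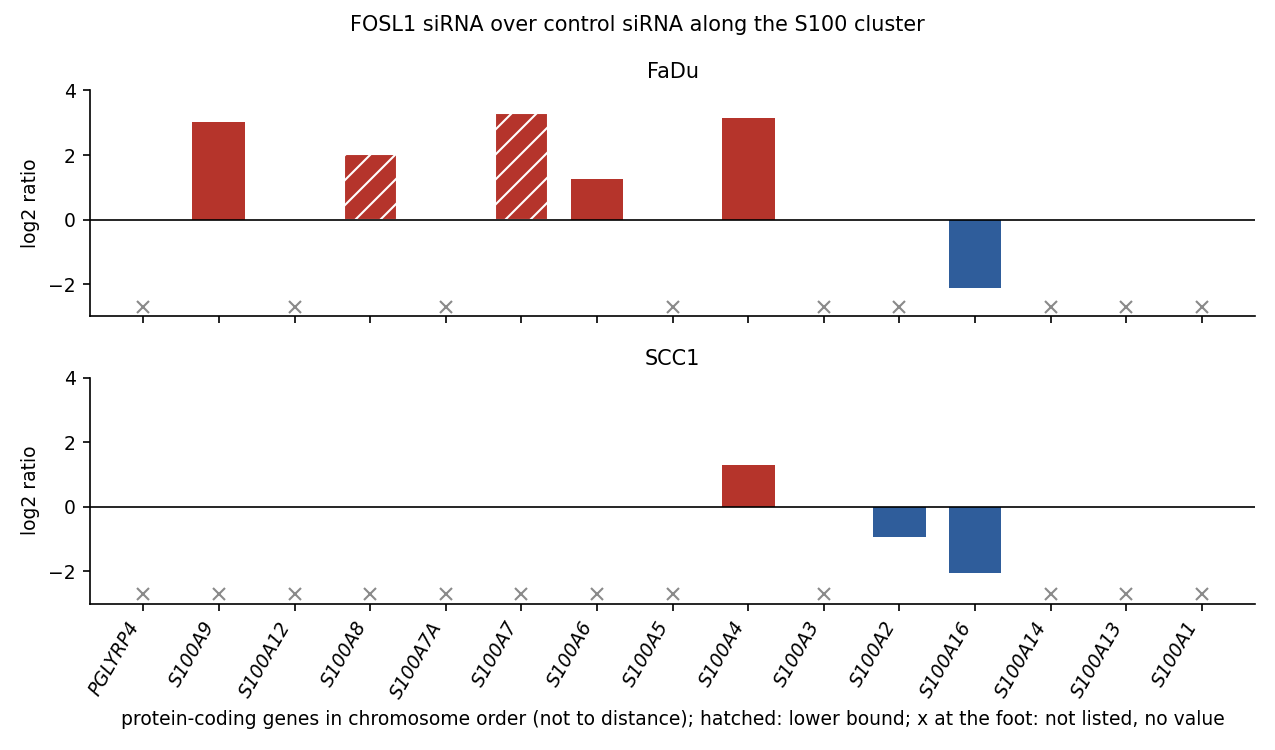
Log2 CPM ratio of FOSL1 siRNA over control siRNA for the genes from PGLYRP4 to S100A1 in chromosome order, evenly spaced, with FaDu above SCC1; red bars are higher, blue bars lower, hatched bars lower bounds and crosses at the foot genes with no listed value. In FaDu 5 of these genes have red bars, among them all of S100A9, S100A8, S100A7 and S100A4, and S100A16 has a blue bar in both lines. The lower bounds take the FOSL1 siRNA reads as exact.

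Levels of different genes were compared per kilobase of exon, with lengths from GENCODE release 29. In FaDu with FOSL1 siRNA, S100A9 had 35.6 CPM per kilobase (31.0 to 40.7, Poisson), S100A4 had 12.02 (9.81 to 14.6), S100A7 had 4.86 (3.20 to 7.07) and S100A8 had 1.65 (0.824 to 2.95). The order S100A9, S100A4, S100A7, S100A8 is therefore beyond counting error at each step within this library. In FaDu with control siRNA, S100A9 had 4.38 (2.93 to 6.29) and S100A4 had 1.37 CPM per kilobase (0.729 to 2.34), with S100A7 and S100A8 at 0.

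The calprotectin partners were far from equal. S100A9 was 21.6 times S100A8 per kilobase in FaDu with FOSL1 siRNA (11.8 to 43.9, exact binomial). In reads, S100A8 had 11 to the 213 of S100A9 in that library. At that read ratio, the 29 control reads of S100A9 would go with 1.498 reads of S100A8, and 0 were counted. That is under the floor of 3 reads, so a change of S100A8 relative to S100A9 was not detectable at this depth. S100A7 had 27 reads to the 213 of S100A9, a ratio that would give 3.68 control reads of S100A7, and 0 were counted.

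The 4 genes stayed below the abundant members of the family. S100A11 had 573 and S100A6 had 263 CPM per kilobase in FaDu with FOSL1 siRNA, and S100A16 had 39.8 (36.9 to 43.0). The interval of S100A16 overlaps that of S100A9 in this library. In FaDu with control siRNA, S100A16 had 172 CPM per kilobase (166 to 178), far above S100A9. At the low end, S100A8 and S100P, at 1.58 CPM per kilobase (0.981 to 2.42), do not differ beyond their intervals with FOSL1 siRNA. Summed, the 4 genes had 34.2 CPM in FaDu with FOSL1 siRNA and 3.66 CPM with control siRNA, and the 4 other listed S100 genes had 629.7 and 503 CPM.

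**Figure D4:**
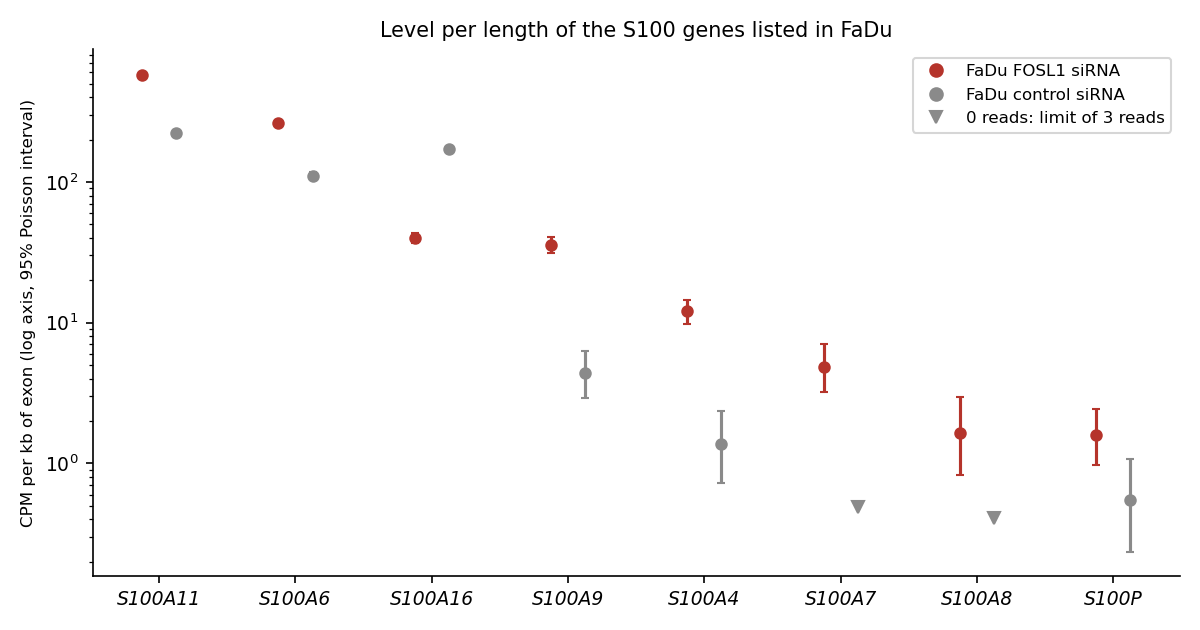
CPM per kilobase of exon (log axis) of the 8 S100 genes listed in FaDu, with 95% Poisson intervals; red is FOSL1 siRNA, grey is control siRNA and grey triangles are the limit of 3 reads where the count is 0. S100A9, S100A4, S100A7 and S100A8 descend at 35.6, 12.02, 4.86 and 1.65 in red, each above its grey mark, and S100A16 is the one gene whose red mark, 39.8, is below its grey mark, 172.

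**Figure D5:**
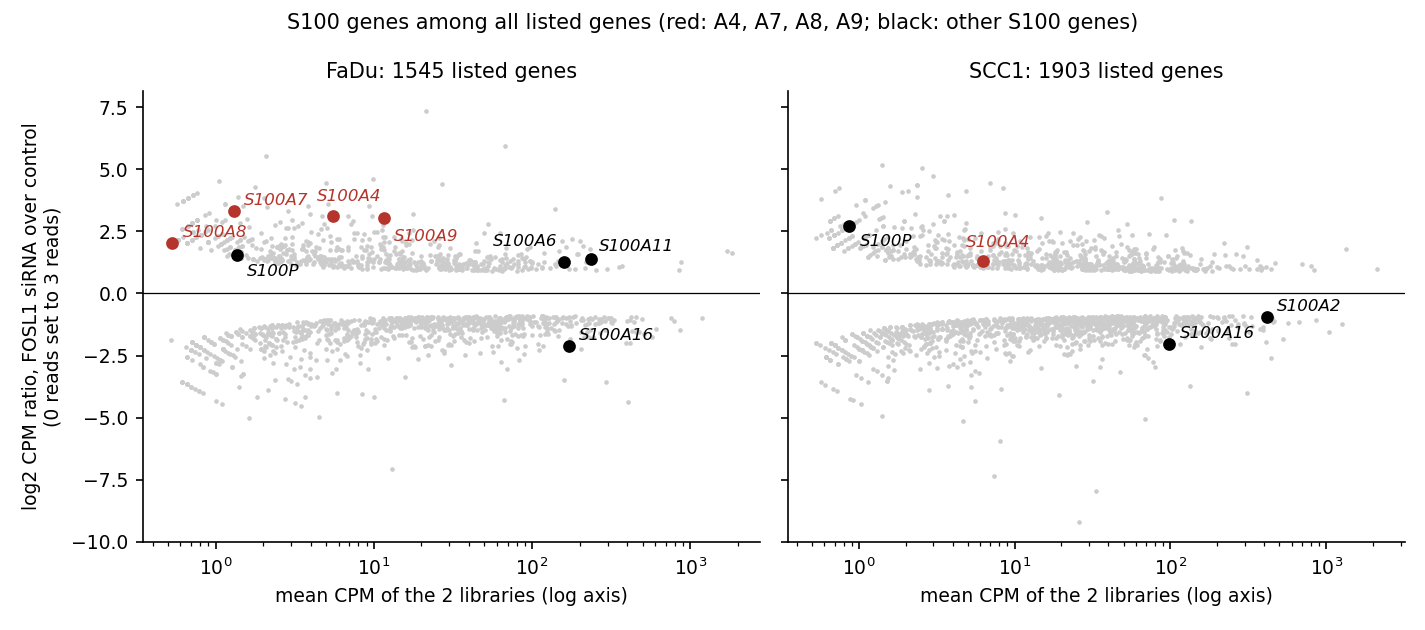
Log2 CPM ratio of FOSL1 siRNA over control siRNA against mean CPM (log axis) for all 1545 genes listed in FaDu and all 1903 in SCC1, grey; red points are S100A4, S100A7, S100A8 and S100A9, black points other S100 genes, and 0 reads were set to 3. The band without points around 0 is the listing threshold, and S100A8 is at the far left of the FaDu panel with 11 reads in all.

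Some limits of reading follow from sequence. S100A7 has a close copy, S100A7A, and their transcripts are 96.2% identical over 367 aligned bases in GENCODE. S100A7A was in neither table, and reads of one can be counted for the other, so the S100A7 value is uncertain in this respect. No other gene's exons overlap the exons of the 4 genes on either strand in that annotation.

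Genes with the most similar levels were taken by distance on log2(CPM + 1), among genes listed in the same tables. For S100A4, over 4 libraries and 677 genes, they were CYP1A1 (distance 0.252), TGFBR3 (0.266) and TJP3 (0.454). CYP1A1, a xenobiotic-metabolizing cytochrome, had 8.39 CPM in FaDu with FOSL1 siRNA and 0.958 CPM with control siRNA, and 8.95 and 3.62 CPM in the same SCC1 groups. For S100A9, over the FaDu libraries alone and 866 genes, they were A4GALT (0.0769), MFAP3L (0.304) and NR4A2 (0.489). For S100A7 they were CNTF (0), GCNT3 (0.0381) and MUC5AC (0.0391), and for S100A8 IL19 (0), CAMK1D (0.066) and FFAR4 (0.066). GCNT3 and MUC5AC, an enzyme of mucin glycosylation and a secreted mucin, also had 0 control reads. With so few libraries these are near levels and no more.

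Known partners and receptors were mostly not listed. Of 17, among them TLR4 and AGER (the receptor RAGE), which sense extracellular S100 proteins, 1 was higher and 1 lower in FaDu, and 2 were higher and 1 lower in SCC1. Of all tested genes, 4.76% were listed as higher and 6.44% as lower in FaDu, and 5.6% and 8.19% in SCC1. None of these 5 listed values had an FDR under 0.05 in the authors' deposited table. MYH9, the non-muscle myosin heavy chain that S100A4 binds, was lower in both lines. It had 452 CPM in FaDu with FOSL1 siRNA and 1258 CPM with control siRNA, 2.78-fold lower (2.69 to 2.88). In SCC1 it had 744 and 1765 CPM in these groups, 2.37-fold lower (2.31 to 2.43). With the median log2 ratio of listed genes set to 0 (the median shift) it was 1.38-fold lower in FaDu and 1.14-fold lower in SCC1, under the 1.5-fold threshold in both. The shift raises every ratio by construction. A lower gene or a count of lower genes that shrinks with it, here or below, is therefore not checked by it. CD14, a co-receptor of TLR4, was 2.55-fold higher in FaDu (1.64 to 4.05). In SCC1, AGER was 2.98-fold higher (1.53 to 6.17) and the scavenger receptor gene CD36 3.08-fold higher (1.31 to 8.04), both from 33 reads or fewer in a library.

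Of 22 genes for regulators of S100 and keratinocyte genes, 7 were higher and 4 lower in FaDu, where 4.76% and 6.44% of all tested genes were listed. FOSL1 was among those lower. JUN and FOSB, AP-1 genes named after their values were seen, were also lower, by 2.28-fold (2.11 to 2.45) and 2.30-fold (1.54 to 3.50). With the median shift JUN was 1.13-fold lower and FOSB 1.14-fold lower, under the 1.5-fold threshold. The 4 lower regulators in FaDu became 1 with that shift, which raises every ratio. At an FDR under 0.05 in the authors' deposited table, 3 were higher and 1 was lower in FaDu, beside 1.25% and 1.6% of tested genes. GRHL3, a factor of terminal differentiation, had 5.40 CPM with FOSL1 siRNA and 0.697 CPM with control siRNA, 7.75-fold higher (3.68 to 18.8). ZNF750, a differentiation factor below p63, was 5.54-fold higher (3.09 to 10.6), and ELF3, an epithelial ETS factor, 3.04-fold higher (2.84 to 3.27). In SCC1, 3 were higher and 2 lower, where 5.6% and 8.19% of all tested genes were. The 2 lower in SCC1 became 1 with the median shift. OVOL1, a repressor of progenitor genes, was 3.72-fold higher (2.76 to 5.09), and CEBPA, a factor of myeloid cells and of differentiating keratinocytes, 3.11-fold higher (2.28 to 4.30).

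Genes for layers of the epithelium where S100A7, S100A8 and S100A9 are made were also looked up. Of 49 cornified envelope genes, 3 were higher and 0 lower in FaDu, and none was listed in SCC1. TGM1, which crosslinks the envelope, had 8.49 CPM in FaDu with FOSL1 siRNA and 1.22 CPM with control siRNA. The 3 higher envelope genes were 6.12% of their list in FaDu, beside 4.76% of tested genes. The list share is over every gene of the list, tested or not, so these shares have unlike denominators. Of 12 upper-layer keratins, 3 were higher and 1 lower in FaDu and none was listed in SCC1, with KRT13 12.1-fold higher (6.10 to 27.2) and KRT16 4.19-fold higher (3.10 to 5.74). For the keratins that is 25% higher and 8.33% lower in FaDu, beside 4.76% and 6.44% of all tested genes. In SCC1, 5.6% of all tested genes were listed as higher and 8.19% as lower. The difference between the lines in the envelope and keratin lists was not tested.

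Other epithelial alarmins and antimicrobial genes split. Of 30, 3 were higher and 3 lower in FaDu, and 0 higher and 4 lower in SCC1. That is 10% of the list in each direction in FaDu and 13.3% lower in SCC1, beside 4.76% higher and 6.44% lower in FaDu and 8.19% lower in SCC1 over all tested genes. The 4 lower in SCC1 became 2 with the median shift and 2 at an FDR under 0.05 in the authors' deposited table. At that FDR, 2.21% of tested genes were lower in SCC1. The protease inhibitor genes PI3 and SLPI had 5.21 and 7.91 CPM in FaDu with FOSL1 siRNA, against 0.523 and 1.31 CPM with control siRNA. The antimicrobial ribonuclease gene RNASE7 had 3 reads in FaDu with FOSL1 siRNA and 26 with control siRNA, a ratio of 0.128 (0.0248 to 0.417). In SCC1 RNASE7 was 5.23-fold lower (2.33 to 13.8). IL1B, whose product can induce S100A8 and S100A9 in keratinocytes, was 6.32-fold lower in FaDu (5.51 to 7.28) and 13.1-fold lower in SCC1 (11.4 to 15.1). S100A7, S100A8 and S100A9 thus went with PI3 and SLPI in FaDu, and opposite to IL1B and RNASE7.

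Markers of other cells that carry these proteins were examined. Of 14 leukocyte markers, 1 was higher (CD14) and 1 lower (CD68) in FaDu, with a summed level of 15.05 CPM with FOSL1 siRNA and 38.3 CPM with control siRNA. In SCC1 CD68 was the one listed, at 3.99 CPM with FOSL1 siRNA and 17.3 CPM with control siRNA. PTPRC, ITGAM, CSF3R and the other leukocyte markers have no listed value. Of 13 fibroblast markers other than S100A4, 3 were lower and 0 higher in FaDu (COL3A1, COL6A3 and POSTN), summing to 6.17 CPM with FOSL1 siRNA and 16.7 CPM with control siRNA, and none was listed in SCC1. The 3 lower became 1 with the median shift and 1 at an FDR under 0.05 in the authors' deposited table. At that FDR, 1.6% of tested genes were lower in FaDu. Of all tested genes, 4.76% were listed as higher and 6.44% as lower in FaDu. No listed marker of either kind was at 0 reads. Their part in the S100 values was not tested.

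The labelled squamous origin could be checked only in part, since each line listed 2 of 15 squamous markers, 1 higher and 1 lower. That is 6.67% of the list each way, taken over every gene of the list, tested or not. The shares over tested genes alone were 4.76% higher and 6.44% lower in FaDu, and 5.6% and 8.19% in SCC1. KRT17 had 2609 CPM in FaDu with FOSL1 siRNA and 794 CPM with control siRNA, and CDH1 had 192 and 101 CPM in these groups of SCC1. ITGB4, the integrin subunit of hemidesmosomes, was 2.25-fold lower in FaDu (2.13 to 2.37) and 4.10-fold lower in SCC1 (3.85 to 4.37). With the median shift ITGB4 was 1.11-fold lower in FaDu, under the 1.5-fold threshold, and 1.98-fold lower in SCC1.

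Of 14 genes of epithelial-mesenchymal transition, a programme in which S100A4 is often used as a marker, 2 were higher and 4 lower in FaDu, and 3 were higher and 3 lower in SCC1. Of all tested genes, 4.76% were listed as higher and 6.44% as lower in FaDu, and 5.6% and 8.19% in SCC1. The list mixes epithelial and mesenchymal genes, so its counts give no direction of the programme. With the median shift the lower ones became 2 in FaDu and 1 in SCC1. SNAI1, a repressor of E-cadherin, was 3.01-fold higher in FaDu (1.72 to 5.50), the direction of S100A4 there. SNAI2 was 4.26-fold lower in FaDu (3.48 to 5.25) and CDH2, N-cadherin, 4.13-fold lower (3.38 to 5.07). VIM, vimentin, was 4.24-fold lower in SCC1 (3.33 to 5.46), and SNAI1 9.39-fold higher (6.01 to 15.4). The epithelial genes OVOL1 and ESRP2 went opposite to each other in both lines. OVOL1 was 2.62-fold higher in FaDu (1.96 to 3.52) and 3.72-fold higher in SCC1 (2.76 to 5.09). ESRP2 was 2.30-fold lower in FaDu (2.01 to 2.64) and 2.17-fold lower in SCC1 (1.94 to 2.42). With the median shift ESRP2 was 1.14-fold lower in FaDu and 1.04-fold lower in SCC1.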

How the data were processed

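RNA-seq of total RNA was compared between FOSL1 siRNA and control siRNA in FaDu and SCC1, with 1 library per group and libraries made with a KAPA kit, per the labels' protocols. TopHat, Cufflinks and build hg18 are named in the submitters' processing notes, without roles; the sources used here do not give the counter, strand setting or normalization. For each line the authors deposited a table limited to genes past their own comparison. Per the file headers it holds CPM in both libraries, a signed fold score (negative for genes lower with FOSL1 siRNA), a p-value and an FDR. The labels leave unexplained the 2 that ends the SCC1 control's column name.

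Deposited CPM moves in steps of 1 read, worth 0.0755 to 0.0965 CPM by library. Within 0.01 of a step, 100% of values came out whole, which gave the reads and the effective library sizes. Folds are CPM ratios without pseudocount, with exact binomial (Clopper-Pearson) intervals at 95%. A library at 0 reads was set to a floor of 3 reads, and the bound so made takes the reads of the other library as exact. A gene was counted from 1.5-fold, which all listed genes met. The number of genes tested, 13796, came from the authors' FDR over p-value. Which genes of a list were tested is not known, so list counts and shares are over all its genes. Motifs were searched as exact letters in RefSeq promoters, and 19 of 21 S100 genes had one.

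The 4 genes and the 11 gene lists were chosen with earlier results of these data known. The text names FOSL1, the 4 genes, each listed S100 gene, up to 4 genes per other list by size of the log2 ratio, and for each of the 4 genes the 3 nearest; some genes that this takes are not described, and 1 regulator gene that was lower in both lines is not reported here. Reading of CPM steps and the edgeR 4.0.16 likelihood ratio test (R 4.3.3) were tested on simulated data. Python 3.11.15 was used with numpy 2.4.6, pandas 2.3.3, SciPy 1.17.1, Biopython 1.88 and matplotlib 3.10.9.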

Additional observations from a re-analysis of the deposited data

How the results depend on the processing

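With the median log2 ratio of listed genes set to 0, which shifts it from -1.01 in FaDu and -1.05 in SCC1, S100A4 was 17.7-fold higher in FaDu and 5.07-fold higher in SCC1, S100A9 16.4-fold, and the bounds of S100A7 and S100A8 became 20.1 and 8.20. Most listed genes were lower, so this shift raises every ratio by construction. Against the 0 control reads, a pseudocount of 1 CPM gave 3.605 for S100A7 and 2.06 for S100A8, and S100A4 in FaDu became 5.13, while one of 0.1 CPM gave 27.0 for S100A7 and 11.6 for S100A8. No alternative turned the direction of the 4 genes. The median shift did turn 4 listed values in the other gene lists that were lower with FOSL1 siRNA, to ratios of 1.07 for S100A2 and 1.00156 for SNAI2 in SCC1, and of 1.02 for KRT80 and 1.06 for FN1 in FaDu. The 7 higher S100 genes in FaDu, the 4 followed here included, became 4 at 4-fold, 4 at an authors' FDR under 0.05 and 4 at 5 CPM or more. The 2 higher in SCC1 became 1, 0 and 1 under these, and the 2 lower became 1 at 2-fold, at 4-fold, at that FDR and with the median shift. The edgeR likelihood ratio test on the recovered reads, which compares 2 libraries at an assumed dispersion, called all 1545 FaDu and all 1903 SCC1 genes at an unadjusted p of 0.05 with a dispersion of 0.05, where it came within 1% of each of the authors' p-values. At 0.2 it called 327 and 334. All 4 genes were among the 327, and S100A4 was not among the 334. No paired analysis was possible because each group has 1 library. Depth limits S100A8 and S100A7 most, with 11 and 27 reads.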
